A study of Homo sapiens with 12 samples.

Results

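The stretch of the long arm of chromosome 3 between 100 and 120 megabases (GRCh38) was described gene by gene in HEL cells left untreated or regrown after chemotherapy. A gene belonged to it if its only primary chromosome in the deposited table was chromosome 3 and the midpoint of its smallest start and largest end lay in this window. RPL24 and COX17 were left out, and a gene needed at least 10 counts in at least 2 libraries. Of 26481 genes with counts, 126 had their midpoint in the window. Of these, 64 fell below the count minimum, 28 of them with 0 counts in every library, and 60 genes remained: 52 protein-coding genes, 7 long noncoding RNAs and 1 transcribed pseudogene. The genes just above the minimum were LOC101929694 and LOC101929717, whose second-highest counts were 11 and 13. Just below it lay CCDC80 and POPDC2 with 9 and PLCXD2 with 8. The window was drawn with earlier results of these libraries known, so levels, medians and counts over its genes are descriptions and carry no test.

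HEL is an established human erythroleukemia line, a model of acute myeloid leukemia (AML), and all groups derived from this 1 line carrying DNA barcodes. The 12 RNA-seq libraries comprised no-treatment cells cultured with DMSO (NT, n = 2) and cells regrown after doxorubicin (Doxo, 1.8 µM, n = 3), after doxorubicin and cytarabine at 6 µM (Doxo+Cyta, n = 3), or after both with decitabine at 0.1 µM (Doxo+Cyta+DAC, n = 4). Drugs were present for 72 h, surviving cells were grown for about 30 days until the starting number was reached again, and these regrown cultures are called relapses. The sample annotation lists the same 72 h and about 30 days for NT, without drugs. The comparisons ask how relapses that had seen each regimen differed from untreated cells and from each other, and the 3 comparisons with NT share the same 2 NT libraries.

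Genes that neighbour each other on a chromosome often have the same copy number and can share chromatin domains, while each keeps its own promoter. Some neighbours start back to back on opposite strands, so that the DNA between them serves as promoter for both. Doxorubicin poisons topoisomerase II, cytarabine stops DNA synthesis, and decitabine lowers cytosine methylation at CG dinucleotides by trapping DNA methyltransferases. The window carries no single pathway. It holds immune surface proteins such as CD47, CD80 and CD200R1, zinc finger and high-mobility-group DNA-binding proteins, ubiquitin and SUMO regulators, and enzymes of mitochondria, the secretory pathway and transfer RNA modification.

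Library totals ranged from 12763582 to 19106235 counts, so that 3 counts, the limit that a count of 0 allows, corresponded to 0.154 to 0.238 CPM (counts scaled to library size). These limits cover counting error only. All 7 erythroid and megakaryocytic markers were present in every library, GATA1 at 172 to 421 CPM. The T cell genes CD3E and CD3D, the B cell gene MS4A1, and the epithelial genes EPCAM, KRT5 and CDH1 had 0 to 2 counts, as did the fibroblast genes COL1A2 and DCN. CD2 (19.9 to 55.7 CPM), CD79A (0.894 to 6.00 CPM) and COL1A1 (1 to 19 counts) were detected in every library. Doxo 4 and Doxo+Cyta 20 stood apart: their log2 CPM differed from the other libraries of their group by a root mean square of 0.50 and 0.54 across all tested genes, against at most 0.38 for their partners. Doxo+Cyta+DAC 31 lay at 0.44, against at most 0.36 for the other 3. In Doxo+Cyta 20 the difference from the 12-library mean correlated with summed exon length, with Spearman's rho of -0.42 across all tested genes and -0.47 across the 60 genes. Across the 60 genes rho was also 0.34 in Doxo 5 and 0.32 in Doxo 6, against 0.038 in Doxo 4. It was -0.070 in NT 1 and 0.19 in NT 2. The part of length in the levels of the 60 genes was not tested. All pairs of libraries within a group differed by more than sampling noise, and none was counted as a duplicate.

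The 60 genes stood highest in NT and lower in every Doxo library. The level of the region was taken as the median over the 60 genes of each gene's difference in log2 CPM from its mean over all 12 libraries. It was 0.19 and 0.25 in NT, and -0.13, -0.021 and -0.078 in Doxo 4, 5 and 6. In Doxo+Cyta it was 0.20, -0.19 and 0.085 for libraries 19, 20 and 22. In Doxo+Cyta+DAC it was -0.23, 0.22, -0.19 and -0.048 for libraries 30, 31, 32 and 33. NT and Doxo therefore did not overlap, whereas Doxo+Cyta 19 and Doxo+Cyta+DAC 31 reached the level of NT. The group means were 0.22 ± 0.041 (SD, n = 2) in NT, -0.078 ± 0.057 (n = 3) for Doxo, 0.032 ± 0.20 (n = 3) for Doxo+Cyta and -0.064 ± 0.20 (n = 4) for Doxo+Cyta+DAC. Non-overlap of NT and Doxo was not particular to this window. Windows were compared over all their tested genes, 63 in this one. Its level was then 0.17 and 0.23 in NT and -0.098, 0.0032 and -0.012 in Doxo. At 40 to 60 megabases the level was 0.063 and 0.080 in NT and 0.027, -0.018 and -0.077 in Doxo. At 60 to 80 megabases it was -0.051 and -0.019 in NT, below the 0.013, 0.085 and 0.059 of Doxo. Summed over the 60 genes, expression ran from 1587 CPM in Doxo+Cyta 20 to 2363 CPM in Doxo+Cyta+DAC 31. Less RNA per cell and fewer cells expressing a gene cannot be told apart in these bulk libraries, nor can a change of gene copy number.

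**Figure D1:**
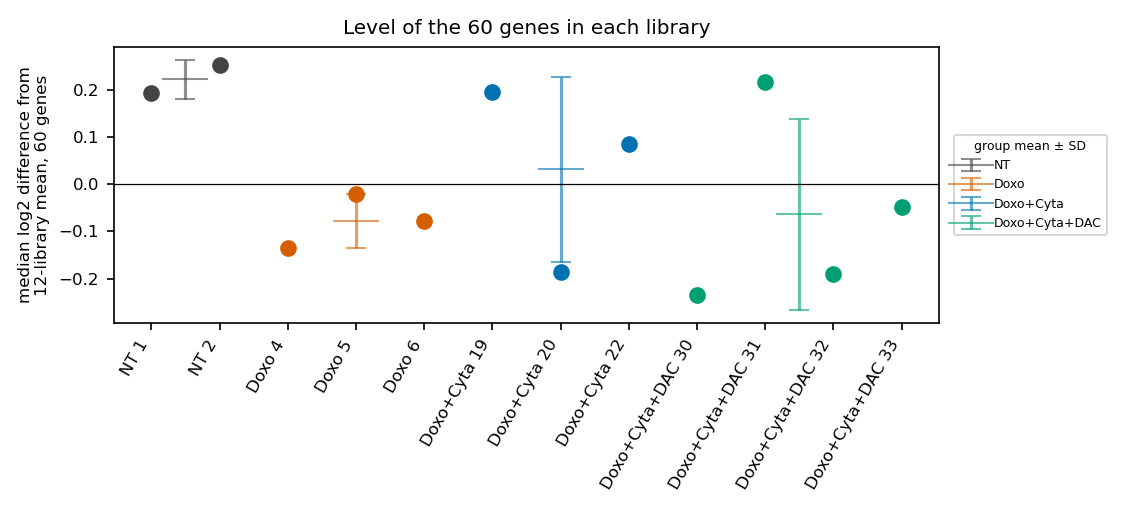
Level of the 60 genes in each of the 12 libraries (x axis), as the median over genes of the log2 CPM difference from the 12-library mean (y axis); points are libraries, crosses with bars are group means ± SD. Both NT libraries lie at 0.19 to 0.25, above the 3 Doxo libraries at -0.13 to -0.021, and the other 2 groups spread over both ranges.

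Of the 60 genes, 25 had their highest group mean in NT, 19 in Doxo+Cyta+DAC, 10 in Doxo+Cyta and 6 in Doxo. The lowest group mean lay in Doxo for 25 genes, in Doxo+Cyta+DAC for 22, in Doxo+Cyta for 9 and in NT for 4. The same split over all genes was not made, so these numbers describe the 60 genes only. The median log2 fold change of the 60 genes relative to NT was -0.36 for Doxo, -0.21 for Doxo+Cyta and -0.29 for Doxo+Cyta+DAC, against 0.0084, 0.0050 and 0.024 for all 14164 genes tested. In Doxo 48 of the 60 genes (80.0%) lay below 0, against 49.1% of all genes. The corresponding numbers were 44 genes for Doxo+Cyta and 38 for Doxo+Cyta+DAC, against 49.4% and 48.6% of all genes. The Doxo+Cyta median was -0.36 without Doxo+Cyta 19 and -0.093 without Doxo+Cyta 20, and without Doxo+Cyta+DAC 31 the median of the triple-drug relapses was -0.43. The 9 other windows of 20 megabases on chromosome 3 had medians from -0.098 to 0.16 for Doxo, -0.25 to -0.019 for Doxo+Cyta and -0.24 to 0.27 for Doxo+Cyta+DAC. These took in every tested gene of a window. Taken that way, this window had 63 genes and medians of -0.35, -0.16 and -0.29. With all libraries its median, over the 60 or the 63 genes, lay below the range of the others for Doxo and Doxo+Cyta+DAC. For Doxo+Cyta it lay inside that range. Leaving out 1 library gave -0.41 to -0.32 for Doxo, -0.36 to -0.093 for Doxo+Cyta and -0.43 to -0.24 for Doxo+Cyta+DAC, with the other windows not recomputed.

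Within the window the lower levels were not uniform. The medians for Doxo relative to NT were -0.34 for the 17 genes at 100 to 105 megabases, -0.29 for the 9 genes at 105 to 110 megabases and -0.41 for the 22 genes at 110 to 115 megabases. The 12 genes at 115 to 120 megabases had -0.16, with 6 of them below 0. Relative to NT the same last stretch was at 0.18 for Doxo+Cyta and at 0.017 for Doxo+Cyta+DAC, whereas the other 3 stretches were below 0 in all relapse groups. At 110 to 115 megabases the region level was 0.26 and 0.30 in NT and -0.30, -0.11 and -0.16 in Doxo. In Doxo+Cyta+DAC 31 it was 0.47 there, above both NT libraries, while the other 3 libraries of that group had -0.31, -0.018 and -0.17. Doxo+Cyta+DAC 31 was also above NT at 115 to 120 megabases (0.14, against 0.0023 and 0.055). It was below NT at 100 to 105 megabases (0.19, against 0.27 and 0.38) and at 105 to 110 megabases (-0.14, against 0.15 and 0.34).

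**Figure D2:**
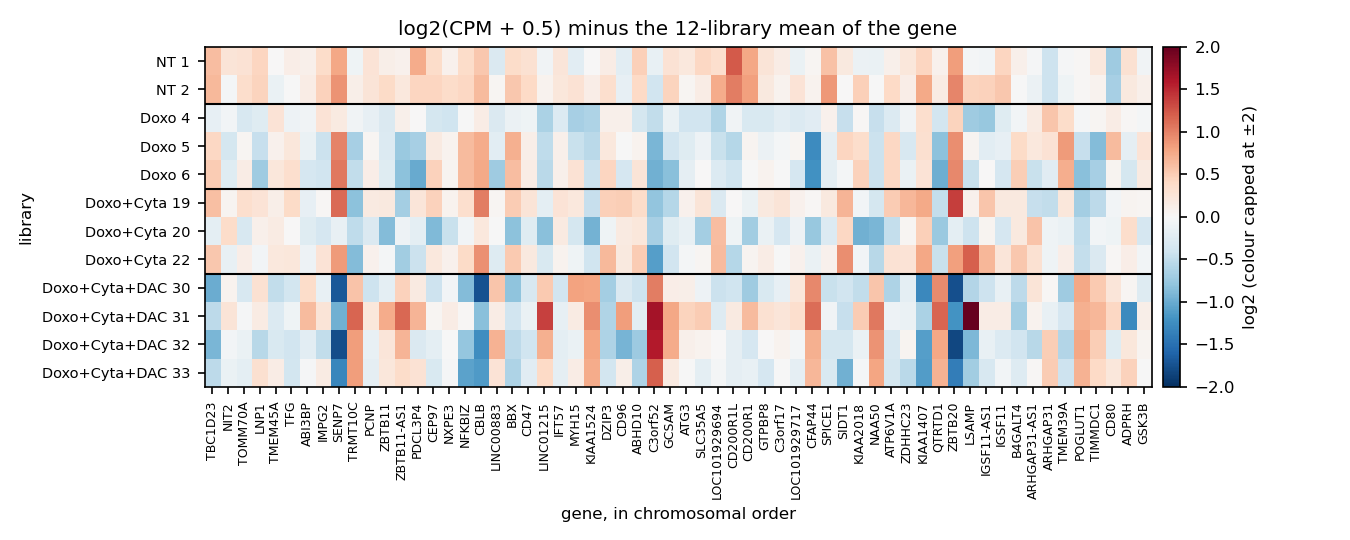
Difference of log2(CPM + 0.5) from the gene's 12-library mean (colour, capped at ±2) for the 60 genes in chromosomal order (x axis) in the 12 libraries (y axis); black lines separate the groups. Columns of deep blue such as SENP7, CBLB and ZBTB20 and columns of red such as C3orf52 and NAA50 stand in the 4 Doxo+Cyta+DAC libraries, between neighbours that differ less.

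In Doxo relapses 2 of the 60 genes rose and 7 fell relative to NT, by edgeR's quasi-likelihood test with adjusted p below 0.05 over all genes. These were 15.0% of the 60 genes, beside 10.7% of all genes tested, of which 6.06% were higher and 4.63% lower. CD80, the costimulatory ligand of CD28 and CTLA4, had 2.57 and 2.68 CPM in NT, 5.10, 7.33 and 4.73 for Doxo, 4.33, 4.27 and 4.64 for Doxo+Cyta and 5.45, 6.19, 3.78 and 5.38 for Doxo+Cyta+DAC. Every Doxo library lay above both NT libraries (change of 1.13 on the log2 scale, SE 0.26, adjusted p = 0.0168), a 2.18-fold rise. The annotated end of CD80 abuts that of TIMMDC1 on the opposite strand, and the counting ignored strand. The 250 bases before the annotated start of CD80, on the minus strand at chr3:119559635-119559884, are shown because CD80 rose both in Doxo and in Doxo+Cyta+DAC; CG dinucleotides are in capitals.
CD80: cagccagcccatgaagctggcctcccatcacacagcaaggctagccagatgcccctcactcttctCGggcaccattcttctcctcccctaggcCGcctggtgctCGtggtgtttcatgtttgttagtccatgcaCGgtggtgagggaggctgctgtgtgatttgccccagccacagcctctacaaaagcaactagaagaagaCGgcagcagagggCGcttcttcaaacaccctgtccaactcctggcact

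TMEM39A, a membrane protein of the endoplasmic reticulum, was the other gene that rose in Doxo. It had 50.4 and 48.4 CPM in NT, 65.8, 92.3 and 85.1 for Doxo, 60.2, 46.6 and 56.04 for Doxo+Cyta and 30.99, 40.5, 33.8 and 38.2 for Doxo+Cyta+DAC. All 3 Doxo libraries lay above NT (change of 0.72 on the log2 scale, SE 0.17, adjusted p = 0.0171) and above all Doxo+Cyta libraries (change of 0.58 on the log2 scale, SE 0.15, adjusted p = 0.0461). TMEM39A was the 1 of the 60 genes called between Doxo and Doxo+Cyta, where 3.4% of all genes were called, 2.32% higher and 1.07% lower. In Doxo+Cyta+DAC it lay below NT in all 4 libraries (change of -0.46 on the log2 scale, SE 0.15, adjusted p = 0.0237).

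Of the 7 genes that fell in Doxo, CD200R1L and LOC101929694 changed most and rest on few counts. CD200R1L, a relative of the inhibitory receptor CD200R1, had 24 and 17 counts in NT, 3, 0 and 1 for Doxo, 4, 3 and 0 for Doxo+Cyta and 1, 5, 3 and 2 for Doxo+Cyta+DAC. NT held 41 counts in all and Doxo 4, a ratio of CPM of 13.4 (exact 95% interval 4.85 to 51.5, counting error only; change of -3.61 on the log2 scale, SE 0.78, adjusted p = 0.012). The long noncoding RNA LOC101929694, which lies next to it, had 9 and 13 counts in NT, 0, 1 and 2 for Doxo, 2, 10 and 11 for Doxo+Cyta and 1, 2, 5 and 3 for Doxo+Cyta+DAC. Its 22 counts in NT against 3 in Doxo gave a ratio of 9.58 (2.88 to 50.02; change of -3.13 on the log2 scale, SE 0.86, adjusted p = 0.033), while Doxo+Cyta 20 and 22 stood at the level of NT. CD200R1 itself, farther along, had 39.4 and 40.8 CPM in NT, 18.4, 23.7 and 22.8 for Doxo, 20.9, 13.9 and 23.6 for Doxo+Cyta and 13.8, 35.8, 17.9 and 20.6 for Doxo+Cyta+DAC and did not pass in Doxo (change of -0.89 on the log2 scale, SE 0.31, adjusted p = 0.0762).

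The other genes that fell in Doxo had more counts. SPICE1, a centriole and spindle protein, had 16.4 and 19.9 CPM in NT, 11.4, 9.37 and 9.28 for Doxo, 12.4, 8.81 and 11.4 for Doxo+Cyta and 7.78, 10.2, 8.29 and 8.63 for Doxo+Cyta+DAC. All 10 relapse libraries lay below both NT libraries; the change was -0.86, SE 0.18, adjusted p = 0.012 in Doxo and -0.74, SE 0.18, adjusted p = 0.0605 in Doxo+Cyta. IGSF11, an immunoglobulin-type adhesion protein, had 50.7 and 54.6 CPM in NT, 31.5, 33.5 and 29.5 for Doxo, 42.9, 29.7 and 44.3 for Doxo+Cyta and 33.7, 41.5, 30.9 and 35.95 for Doxo+Cyta+DAC, again with every relapse library below NT (change of -0.74 on the log2 scale, SE 0.17, adjusted p = 0.0159). LNP1, known as a fusion partner of NUP98 in leukemia, fell to 2.72, 2.27 and 1.83 CPM in Doxo from 4.63 and 4.71 in NT (change of -1.04 on the log2 scale, SE 0.29, adjusted p = 0.0373). KIAA1524, which encodes the phosphatase inhibitor CIP2A, and QTRTD1, a subunit of the enzyme that places queuine in transfer RNAs, also fell in Doxo and are described with their neighbours.

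These counts in Doxo depended on single libraries. Without NT 1 or without NT 2, 0 of the 60 genes were called in the same fit, beside 0.555% and 0.720% of all genes, where the 1 remaining untreated library was assumed to vary like the other groups. Without Doxo 5 or Doxo 6 the numbers were 1 and 2, beside 3.27% and 3.53%. Without Doxo 4 they were 2 higher and 15 lower, beside 22.2% of all genes called, and without Doxo+Cyta 20 they were 2 higher and 14 lower, beside 18.3%. With both of these left out, 2 genes were higher and 21 lower, beside 18.2% and 19.2% of all genes (37.4% in all).

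**Figure D3:**
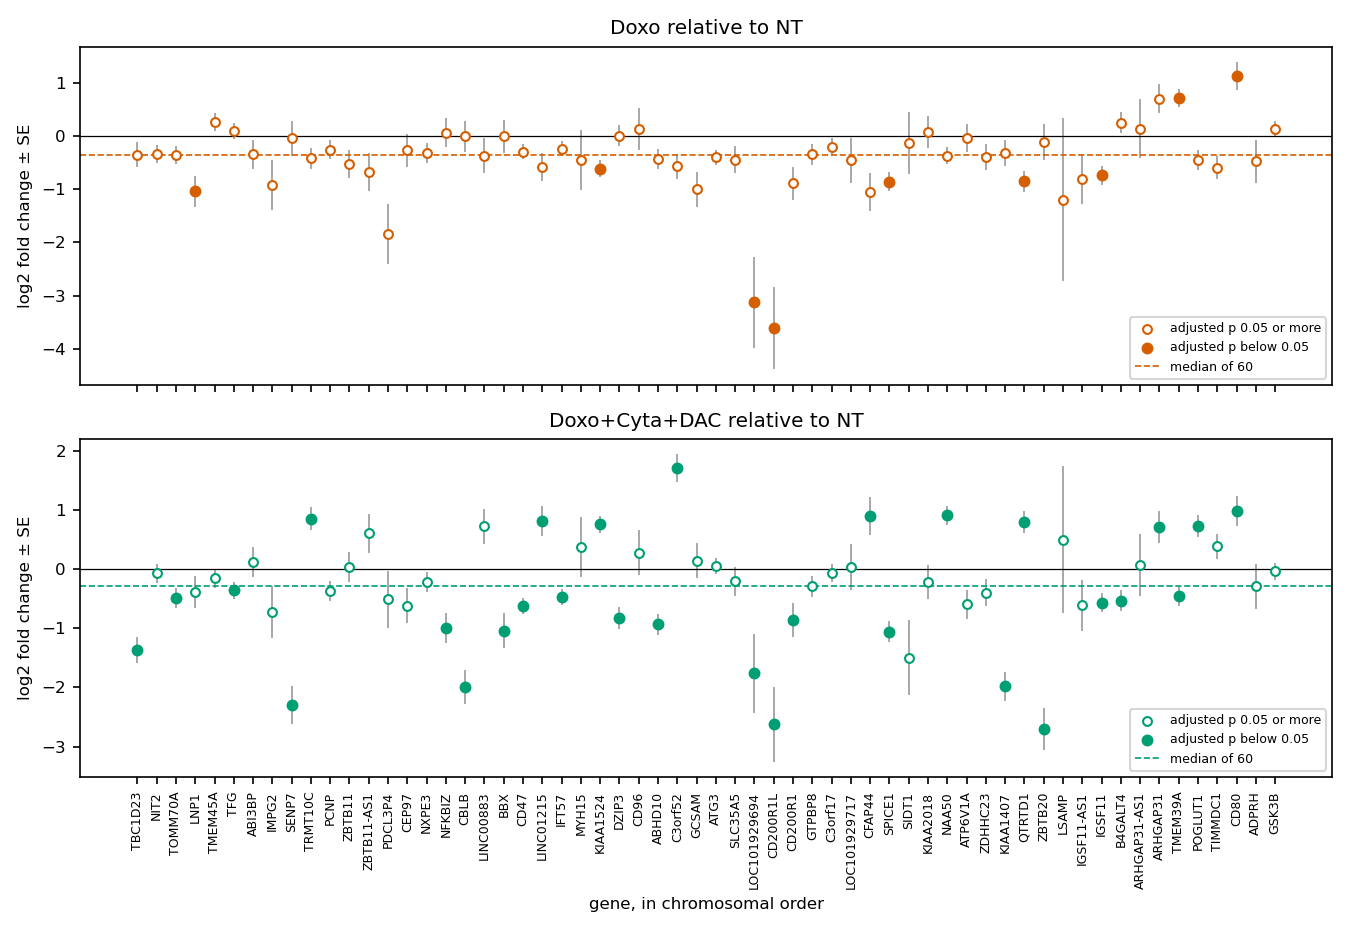
Log2 fold change ± SE (y axis) of the 60 genes in chromosomal order (x axis) for Doxo (upper panel) and Doxo+Cyta+DAC (lower panel) relative to NT; filled points passed adjusted p below 0.05 and the dashed line is the median of the 60 genes. In the upper panel 2 filled points lie above 0 and 7 below it, and in the lower panel 10 lie above and 20 below.

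In Doxo+Cyta relapses, 0 of the 60 genes passed the test relative to NT by edgeR, where 1.46% of all genes were called, 0.911% higher and 0.551% lower. At an unadjusted p below 0.05 there were 12 of the 60, beside 2888 of all 14164 genes tested. DESeq2 called 6 genes, all lower, beside 5.90% of all genes. The smallest adjusted p was that of KIAA1524 (change of -0.66 on the log2 scale, SE 0.15, adjusted p = 0.0508). Without Doxo 4 and Doxo+Cyta 20, 8 genes were lower and 0 higher, beside 8.4% and 6.07% of all genes (14.5% in all).

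In Doxo+Cyta+DAC relapses 10 of the 60 genes rose and 20 fell relative to NT, beside 24.9% of all genes higher, 23.7% lower and 48.7% in either direction. Doxo was higher than Doxo+Cyta+DAC for 15 genes and lower for 16, beside 30.4% and 29.1% of all genes (59.5% in all). Doxo+Cyta was higher for 18 and lower for 12, beside 30.5% and 29.8% (60.3% in all). Leaving out NT 1 or NT 2 left 18 of the 60 genes called relative to NT, beside 30.6% and 31.5% of all genes. Where the fold change also had to exceed 1 on the natural log scale, 2 of the 60 genes were called for Doxo relative to NT (1.96% of all genes), 0 for Doxo+Cyta (0.339%) and 7 for Doxo+Cyta+DAC (9.33%). Relative to Doxo+Cyta+DAC, Doxo then had 7 (11.7%) and Doxo+Cyta 8 (12.4%), and 0 were called between Doxo and Doxo+Cyta (0.289%).

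The largest decreases in Doxo+Cyta+DAC were those of ZBTB20, CD200R1L, SENP7, CBLB and KIAA1407, and CD200R1L (change of -2.62 on the log2 scale, SE 0.63, adjusted p = 0.00377) and LOC101929694 (change of -1.76 on the log2 scale, SE 0.67, adjusted p = 0.0417) again rested on the few counts given above. The LOC101929694 call was lost with DESeq2 (adjusted p = 0.0833) and without NT 1, NT 2 or Doxo+Cyta+DAC 30, 31 or 33. ZBTB20, a zinc finger repressor of transcription whose locus (chr3:114314500-115147280, minus strand) is the longest of the 60, had 12.6 and 13.9 CPM in NT, 9.49, 13.4 and 13.8 for Doxo, 18.6, 5.87 and 12.5 for Doxo+Cyta and 1.65, 2.68, 1.57 and 2.30 for Doxo+Cyta+DAC. The 4 triple-drug libraries lay below all 8 others, 6.51-fold lower than NT (change of -2.70 on the log2 scale, SE 0.35, adjusted p = 4.27e-05). Doxo and Doxo+Cyta were near NT on average (-0.11, SE 0.34, adjusted p = 0.862 and -0.10, SE 0.34, adjusted p = 0.904), and Doxo+Cyta 20 was the lowest of the other libraries.

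SENP7, a protease that takes apart SUMO chains (chr3:101324189-101513241, minus strand), had 47.3 and 51.5 CPM in NT, 31.2, 55.1 and 57.4 for Doxo, 60.8, 24.8 and 49.9 for Doxo+Cyta and 8.15, 13.9, 7.66 and 10.8 for Doxo+Cyta+DAC. Again all 4 triple-drug libraries lay below the other 8, 4.91-fold lower than NT (change of -2.29 on the log2 scale, SE 0.32, adjusted p = 6.96e-05). CBLB, a ubiquitin ligase that dampens receptor signalling, had 9.72 and 10.4 CPM in NT, 7.33, 11.3 and 11.4 for Doxo, 13.7, 7.61 and 12.7 for Doxo+Cyta and 1.59, 3.44, 2.47 and 2.69 for Doxo+Cyta+DAC and was 3.97-fold lower than NT (change of -1.99 on the log2 scale, SE 0.28, adjusted p = 8.98e-05). The gap was of like size against Doxo (Doxo higher by 1.98, SE 0.26, adjusted p = 2.45e-05) and Doxo+Cyta (higher by 2.16, SE 0.26, adjusted p = 9.44e-06).

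Several more of the 20 genes fell by smaller steps. TBC1D23, a Golgi protein that captures endosomal vesicles, had 113 and 116 CPM in NT, 66.2, 98.8 and 105 for Doxo, 112, 64.5 and 107 for Doxo+Cyta and 36.8, 51.2, 39.1 and 51.00 for Doxo+Cyta+DAC (change of -1.36 on the log2 scale, SE 0.22, adjusted p = 0.000216). The 4 triple-drug libraries lay below the other 8. BBX, a high-mobility-group DNA-binding protein, had 68.4 and 76.7 CPM in NT, 48.4, 86.6 and 81.2 for Doxo, 75.2, 29.8 and 75.6 for Doxo+Cyta and 29.9, 40.3, 36.5 and 34.2 for Doxo+Cyta+DAC (change of -1.04 on the log2 scale, SE 0.30, adjusted p = 0.00986); here Doxo+Cyta 20 lay at the level of the triple-drug libraries. NFKBIZ, a nuclear regulator of NF-kappaB, had 122 and 126 CPM in NT, 93.7, 147 and 146 for Doxo, 119.7, 90.8 and 123 for Doxo+Cyta and 51.6, 95.9, 55.2 and 44.5 for Doxo+Cyta+DAC (change of -1.0003 on the log2 scale, SE 0.25, adjusted p = 0.00513), with Doxo+Cyta+DAC 31 above Doxo 4 and Doxo+Cyta 20. NFKBIZ overlaps the end of NXPE3 on the same strand, so its counts are uncertain there. CD47, the signal that keeps macrophages from engulfing a cell, had 242 and 256 CPM in NT, 183, 212 and 215 for Doxo, 233, 164 and 224 for Doxo+Cyta and 156, 177, 147 and 167 for Doxo+Cyta+DAC (change of -0.62 on the log2 scale, SE 0.13, adjusted p = 0.00184). Its triple-drug libraries lay below NT and Doxo and enclosed Doxo+Cyta 20.

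C3orf52, a membrane protein induced by phorbol ester, rose most. It had 8.08 and 6.79 CPM in NT, 6.21, 4.54 and 4.36 for Doxo, 5.01, 5.47 and 3.91 for Doxo+Cyta and 18.7, 29.4, 27.9 and 21.3 for Doxo+Cyta+DAC. Each of the 4 triple-drug libraries lay above all 8 others, 3.27-fold above NT (change of 1.71 on the log2 scale, SE 0.23, adjusted p = 5.71e-05). Relative to Doxo+Cyta+DAC, the log2 change of Doxo was -2.28, SE 0.21, adjusted p = 1.23e-06 and that of Doxo+Cyta -2.34, SE 0.21, adjusted p = 6.71e-07.

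TRMT10C, a subunit of the mitochondrial RNase P that trims and methylates transfer RNAs, had 37.1 and 42.3 CPM in NT, 37.1, 24.5 and 27.6 for Doxo, 21.95, 27.5 and 21.3 for Doxo+Cyta and 58.3, 88.04, 70.6 and 70.5 for Doxo+Cyta+DAC. The triple-drug libraries lay above all others (change of 0.86 on the log2 scale, SE 0.19, adjusted p = 0.00238), and Doxo+Cyta lay below NT without passing the test (-0.75, SE 0.20, adjusted p = 0.0692). CFAP44, an axoneme protein of cilia and flagella, had 3.70 and 3.81 CPM in NT, 3.00, 1.22 and 1.26 for Doxo, 3.65, 1.93 and 3.24 for Doxo+Cyta and 7.47, 8.39, 6.19 and 6.02 for Doxo+Cyta+DAC (change of 0.90 on the log2 scale, SE 0.33, adjusted p = 0.0339). Doxo 5 and 6 stood below every other library while Doxo 4 lay closer to NT. The CFAP44 call in Doxo+Cyta+DAC was lost under upper-quartile scaling (adjusted p = 0.0548) and without NT 1, NT 2, Doxo+Cyta+DAC 30 or Doxo+Cyta+DAC 31 (adjusted p from 0.0626 to 0.162). LINC01215, a long noncoding RNA, had 14.4 and 16.02 CPM in NT, 9.56, 10.5 and 10.3 for Doxo, 13.2, 8.27 and 12.2 for Doxo+Cyta and 21.9, 39.96, 25.2 and 20.1 for Doxo+Cyta+DAC (change of 0.82 on the log2 scale, SE 0.25, adjusted p = 0.0161), with all 6 Doxo and Doxo+Cyta libraries below NT and all 4 triple-drug libraries above it. Its call was lost without NT 1 (adjusted p = 0.125) or NT 2 (adjusted p = 0.0673). CD80 rose here too (change of 0.98 on the log2 scale, SE 0.25, adjusted p = 0.00549), although CD80 did not differ detectably between Doxo and Doxo+Cyta+DAC (0.15, SE 0.21, adjusted p = 0.558). Without NT 1 the CD80 call in Doxo+Cyta+DAC was lost (adjusted p = 0.0553).

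The sequences before the annotated starts of ZBTB20 and SENP7, the largest decreases that did not rest on few counts, and of C3orf52, the largest increase, are shown because decitabine acts at CG dinucleotides, which are in capitals. They were read from GRCh38 as 250 bases on the strand of the gene: ZBTB20 (minus strand, chr3:115147281-115147530, 13 CG), SENP7 (minus strand, chr3:101513242-101513491, 15 CG) and C3orf52 (plus strand, chr3:112086085-112086334, 21 CG). NAA50 (minus strand, chr3:113746300-113746549, 11 CG) rose as well and starts opposite ATP6V1A.
ZBTB20: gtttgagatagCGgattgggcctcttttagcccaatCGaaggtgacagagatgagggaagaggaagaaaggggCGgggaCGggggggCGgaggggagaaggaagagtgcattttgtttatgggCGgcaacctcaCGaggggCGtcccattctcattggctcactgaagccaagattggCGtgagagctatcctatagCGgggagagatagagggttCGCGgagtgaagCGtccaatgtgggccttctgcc
SENP7: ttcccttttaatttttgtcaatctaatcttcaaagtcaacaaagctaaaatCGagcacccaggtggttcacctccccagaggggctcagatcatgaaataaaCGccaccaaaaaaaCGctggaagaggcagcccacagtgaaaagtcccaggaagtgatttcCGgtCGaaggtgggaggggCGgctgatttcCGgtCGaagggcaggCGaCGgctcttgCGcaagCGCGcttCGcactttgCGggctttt
C3orf52: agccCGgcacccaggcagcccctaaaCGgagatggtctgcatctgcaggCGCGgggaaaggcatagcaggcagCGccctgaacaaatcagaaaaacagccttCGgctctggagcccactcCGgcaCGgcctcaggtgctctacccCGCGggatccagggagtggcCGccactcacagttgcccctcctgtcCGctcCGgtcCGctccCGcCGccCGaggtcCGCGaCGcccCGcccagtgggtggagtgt
NAA50: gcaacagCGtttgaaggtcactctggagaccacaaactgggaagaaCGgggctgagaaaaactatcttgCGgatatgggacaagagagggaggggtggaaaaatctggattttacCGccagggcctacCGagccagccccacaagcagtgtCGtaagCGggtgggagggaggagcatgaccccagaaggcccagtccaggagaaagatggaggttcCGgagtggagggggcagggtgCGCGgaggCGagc

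CG dinucleotides were searched as the letters CG, which read the same on both strands. They were present at least once in 95% of the 60 upstream windows and in 98.6% of those of the tested genes. The 250 bases upstream held a median of 14 CG in the 10 genes that rose in Doxo+Cyta+DAC, 13 in the 20 that fell and 14.5 in the 30 that were not called. The median over the 60 genes was 13.5, against 18 over 14071 tested genes. The median share of G and C bases in these windows was also lower, 57% against 62.4%. Methylation was not measured in these libraries.

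In 2 pairs of neighbours that start back to back, 1 gene rose and the other fell in Doxo+Cyta+DAC. Pairs of genes on opposite strands with starts at most 1000 bases apart were examined after values had been seen, and the 60 genes formed 6 such pairs. KIAA1407, a coiled-coil protein gene (chr3:113964137-114056613, minus strand), and QTRTD1 (chr3:114056735-114088421, plus strand) are separated by 121 bases at chr3:114056614-114056734, shown on the plus strand with its 10 CG in capitals because both genes start at its ends.
KIAA1407 to QTRTD1: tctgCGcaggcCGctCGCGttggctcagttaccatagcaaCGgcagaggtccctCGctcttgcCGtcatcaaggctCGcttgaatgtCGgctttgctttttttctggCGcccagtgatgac

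KIAA1407 had 3.96 and 5.12 CPM in NT, 3.70, 3.67 and 3.53 for Doxo, 5.13, 4.14 and 5.19 for Doxo+Cyta and 0.858, 1.65, 1.05 and 1.03 for Doxo+Cyta+DAC. The triple-drug libraries lay below all others (change of -1.98 on the log2 scale, SE 0.25, adjusted p = 3.55e-05). QTRTD1 had 21.9 and 23.1 CPM in NT, 15.8, 11.4 and 10.2 for Doxo, 14.6, 12.1 and 15.03 for Doxo+Cyta and 39.9, 46.8, 35.5 and 33.4 for Doxo+Cyta+DAC. It fell in Doxo (change of -0.85 on the log2 scale, SE 0.19, adjusted p = 0.0153) and rose in Doxo+Cyta+DAC (change of 0.79 on the log2 scale, SE 0.19, adjusted p = 0.00331), with all triple-drug libraries above NT and all Doxo and Doxo+Cyta libraries below it. The ratio of QTRTD1 to KIAA1407 counts was 5.52 and 4.51 in NT, 2.89 to 4.26 for Doxo, 2.84 to 2.92 for Doxo+Cyta and 28.3 to 46.5 for Doxo+Cyta+DAC. KIAA1407 had only 14, 24, 20 and 13 counts in the Doxo+Cyta+DAC libraries, so the size of the ratio there is imprecise.

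KIAA1524 and DZIP3, an RNA-binding ubiquitin ligase, overlap by their first 155 bases. KIAA1524 had 36.2 and 39.1 CPM in NT, 23.03, 24.3 and 26.4 for Doxo, 25.9, 18.3 and 27.01 for Doxo+Cyta and 62.5, 68.8, 62.4 and 60.3 for Doxo+Cyta+DAC. It fell in Doxo (change of -0.61 on the log2 scale, SE 0.15, adjusted p = 0.0242) and rose in Doxo+Cyta+DAC (change of 0.76 on the log2 scale, SE 0.15, adjusted p = 0.00105). DZIP3 had 23.4 and 26.8 CPM in NT, 22.6, 24.5 and 28.6 for Doxo, 29.7, 19.8 and 33.3 for Doxo+Cyta and 13.05, 13.8, 13.6 and 16.2 for Doxo+Cyta+DAC and fell in Doxo+Cyta+DAC (change of -0.82 on the log2 scale, SE 0.19, adjusted p = 0.00238). The ratio of DZIP3 to KIAA1524 was 0.646 and 0.686 in NT, 0.982 to 1.08 for Doxo, 1.08 to 1.23 for Doxo+Cyta and 0.200 to 0.269 for Doxo+Cyta+DAC, so that no group overlapped NT.

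NAA50, an N-terminal acetyltransferase, and ATP6V1A, the catalytic subunit of the vacuolar proton pump, start 720 bases apart. NAA50 had 142 and 155 CPM in NT, 114, 116 and 116 for Doxo, 122, 82.9 and 107 for Doxo+Cyta and 229, 327, 291 and 269 for Doxo+Cyta+DAC and rose in all 4 triple-drug libraries (change of 0.91 on the log2 scale, SE 0.16, adjusted p = 0.00041). ATP6V1A had 66.6 and 81.6 CPM in NT, 51.2, 83.2 and 83.2 for Doxo, 88.9, 44.7 and 76.02 for Doxo+Cyta and 40.3, 58.1, 49.5 and 48.8 for Doxo+Cyta+DAC, below NT in these 4 libraries, and did not pass the test (change of -0.59 on the log2 scale, SE 0.24, adjusted p = 0.0586). The ratio of ATP6V1A to NAA50 was 0.170 to 0.181 in Doxo+Cyta+DAC, against 0.469 and 0.526 in NT and at least 0.450 elsewhere.

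In the remaining 3 pairs the members did not part in this way: TOMM70A fell (change of -0.49 on the log2 scale, SE 0.17, adjusted p = 0.0259) while LNP1 had -0.39, SE 0.27, adjusted p = 0.25, and neither ATG3 and SLC35A5 nor ZBTB11 and ZBTB11-AS1 were called in Doxo+Cyta+DAC relative to NT. Across the genome 317 of 1279 such pairs had both genes called in this comparison, and 124 of them (39.1%) went opposite ways; among the 6 pairs it was 2 of 2. Counting without strand cannot separate reads where 2 genes overlap, which touches 155 bases of KIAA1524 and DZIP3, 206 of TOMM70A and LNP1 and 715 of ZBTB11 and ZBTB11-AS1, measured between annotated starts. The loci of IGSF11-AS1 and ARHGAP31-AS1 lie within those of IGSF11 and ARHGAP31. ZBTB11-AS1 was -1.29, SE 0.31, adjusted p = 0.00242 in Doxo relative to Doxo+Cyta+DAC.

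**Figure D4:**
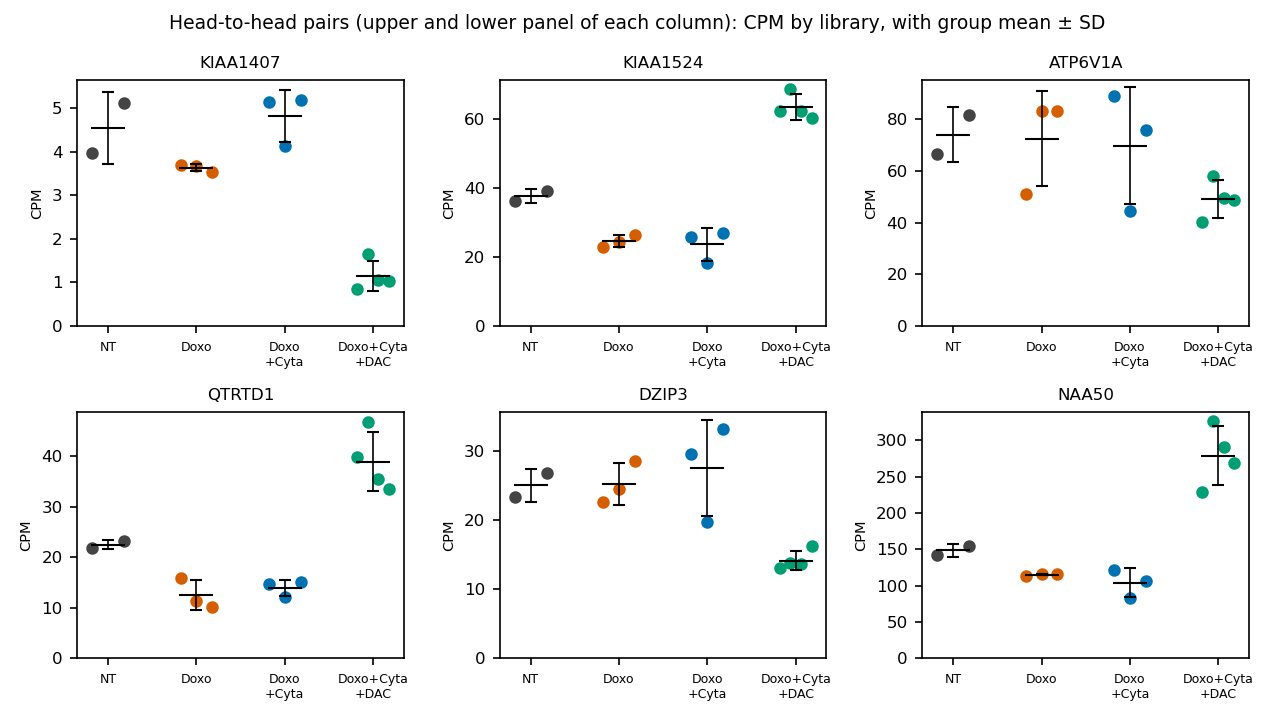
CPM (y axis, from 0) by library and group (x axis) for 3 pairs of genes that start back to back, 1 pair per column; points are libraries and bars are group means ± SD with n = 2, 3, 3 and 4. In Doxo+Cyta+DAC, QTRTD1, KIAA1524 and NAA50 lie above every other library and KIAA1407 and DZIP3 below every other library, while ATP6V1A overlaps with Doxo+Cyta 20 and Doxo 4.

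The function groups held 4 to 8 genes each, so their counts are descriptions only. Relative to NT, 6.06% of all genes were higher and 4.63% lower in Doxo. In Doxo+Cyta+DAC 24.9% were higher and 23.7% lower. Grouped by function, the immunoglobulin-type surface proteins had 7 measured genes. In Doxo 1 rose (CD80) and 2 fell (CD200R1L, IGSF11), and in Doxo+Cyta+DAC 1 rose and 4 fell, with CD47 and CD200R1 added (change of -0.86 on the log2 scale, SE 0.29, adjusted p = 0.0225). ALCAM had 0 counts in every library, and CD200, BTLA, TIGIT, BOC and PVRL3 had at most 4 counts. The summed T cell markers, almost all CD2, were 26.6 to 27.4 CPM in NT, 46.8 to 55.7 for Doxo, 35.6 to 51.8 for Doxo+Cyta and 19.9 to 43.7 for Doxo+Cyta+DAC, with CD3E and CD3D at 0 to 2 counts. The part of these cell type markers in the surface protein values was not tested.

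Of the 5 DNA-binding proteins, 3 fell in Doxo+Cyta+DAC (ZBTB20, BBX, NFKBIZ) and 0 were called in Doxo, where their median log2 fold change was -0.0080. Of all genes, 24.9% were higher and 23.7% lower in Doxo+Cyta+DAC, and 10.7% were called in Doxo. ZBTB11 had 71.8 and 85.9 CPM in NT, 53.7, 54.4 and 55.7 for Doxo, 75.4, 35.9 and 63.7 for Doxo+Cyta and 57.1, 110.3, 77.7 and 77.4 for Doxo+Cyta+DAC and was not called relative to NT in either. Among 7 kinase, GTPase, ubiquitin and SUMO regulators, 3 fell (SENP7, CBLB, DZIP3) and 2 rose in Doxo+Cyta+DAC. The 2 were KIAA1524 and ARHGAP31, a GTPase-activating protein for Rac and Cdc42 (change of 0.71 on the log2 scale, SE 0.26, adjusted p = 0.0379). GSK3B, the glycogen synthase kinase of the Wnt pathway, was called in none of the 6 comparisons and had 62.04 and 70.1 CPM in NT, 63.5, 79.04 and 74.04 for Doxo, 67.4, 51.4 and 63.1 for Doxo+Cyta and 54.5, 70.6, 68.1 and 64.8 for Doxo+Cyta+DAC.

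Among the 4 centrosome, spindle and cilium proteins, SPICE1 and IFT57 fell and CFAP44 rose in Doxo+Cyta+DAC (for CFAP44 with the limits given above), and SPICE1 fell in Doxo. The all-gene shares given for the groups above hold here too, 24.9% higher and 23.7% lower in Doxo+Cyta+DAC. The 4 mitochondrial proteins split into TRMT10C, which rose, ABHD10, a depalmitoylase, which fell (change of -0.93 on the log2 scale, SE 0.17, adjusted p = 0.000671), and 2 that were not called. TIMMDC1, an assembly factor of respiratory complex I, had 42.9 and 39.1 CPM in NT, 38.04, 20.2 and 23.2 for Doxo, 25.5, 35.7 and 30.1 for Doxo+Cyta and 53.4, 59.1, 52.3 and 49.2 for Doxo+Cyta+DAC. It was lower in Doxo and Doxo+Cyta than in Doxo+Cyta+DAC (-0.98, SE 0.19, adjusted p = 0.000519 and -0.81, SE 0.19, adjusted p = 0.00191) but was not called relative to NT. Of the 4 RNA and protein modifying enzymes QTRTD1 and NAA50 rose in Doxo+Cyta+DAC and 0 fell.

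Of the 8 secretory, lysosome and autophagy proteins, POGLUT1 rose in Doxo+Cyta+DAC and TFG, B4GALT4 and TMEM39A fell, beside 24.9% and 23.7% of all genes. POGLUT1, which adds glucose to Notch receptors, had 17.2 and 17.4 CPM in NT, 16.8, 12.2 and 9.28 for Doxo, 10.4, 11.8 and 12.1 for Doxo+Cyta and 29.6, 28.1, 29.4 and 27.8 for Doxo+Cyta+DAC (change of 0.73 on the log2 scale, SE 0.19, adjusted p = 0.00515), with the 4 triple-drug libraries above all others. TFG, a scaffold of endoplasmic reticulum exit sites, fell slightly (change of -0.36 on the log2 scale, SE 0.14, adjusted p = 0.0455). TFG and PCNP were at the top of the 60 genes per kilobase of exon, with group means of 69.2 and 73.5 CPM per kilobase in NT and 53.9 and 56.7 in Doxo+Cyta+DAC. The pluripotency and germline genes DPPA2, DPPA4 and MORC1, which lie in the window, had 0 counts in every library. The summed erythroid and megakaryocytic markers were 2563 to 2572 CPM in NT and 1801 to 2046 CPM in Doxo+Cyta+DAC, and their part in the values of the 60 genes was not tested.

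In none of the 6 comparisons were 17 of the 60 genes called. The matching share of all genes was not taken, so this number cannot be read as high or low. Among the 17 were PCNP at 102 to 165 CPM, NIT2 at 31.95 to 53.2 CPM and C3orf17 at 63.5 to 95.8 CPM. Others of these 17 varied more between libraries, with KIAA2018 at 8.54 to 24.3 CPM, CEP97 at 9.07 to 23.8 CPM and SLC35A5 at 11.01 to 25.6 CPM. LSAMP, a neuronal adhesion protein, had 8 and 13 counts in NT, 1, 8 and 3 for Doxo, 8, 3 and 27 for Doxo+Cyta and 2, 47, 0 and 1 for Doxo+Cyta+DAC, nearly all from Doxo+Cyta+DAC 31 within its group. SIDT1, a transmembrane protein linked to RNA uptake, had 12 and 8 counts in NT, 3, 14 and 7 for Doxo, 17, 12 and 22 for Doxo+Cyta and 4, 3, 5 and 0 for Doxo+Cyta+DAC and was higher in Doxo+Cyta than in Doxo+Cyta+DAC (change of 2.45 on the log2 scale, SE 0.53, adjusted p = 0.00125), where a change was not detectable relative to NT (-1.50, SE 0.64, adjusted p = 0.0657).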

How the data were processed

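RNA-seq was analysed in 12 libraries of HEL cells. The deposited values are raw, unnormalized counts of read pairs for each gene, obtained by the authors using featureCounts 1.6.0 after alignment to GRCh38 with Bowtie2 2.2.8 (versions per the file header and the submitters' processing notes), without strand and without fragments shared by overlapping genes, which lowers counts where genes overlap. The annotation version is not given in the sources used here. Of 26485 rows, 4 lacked counts and were left out.

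Genes were tested with edgeR 4.0.16 (R 4.3.3) by the quasi-likelihood F-test over all 12 libraries, after filterByExpr and TMM scaling, in 6 comparisons, with Benjamini-Hochberg adjustment over 14164 genes and calls at adjusted p below 0.05. CPM used TMM-scaled library sizes, and log2 CPM a prior count of 2. The standard error is the fold change divided by the square root of F. Upstream bases were read from GRCh38 at the starts given in the deposited table, and all 60 symbols matched RefSeq. The test code was run on simulated counts with the same spread for every gene and with changes in Doxo+Cyta+DAC only. These settings differ from the libraries here, so that run does not bear on the calls.

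The genes named with values were, per comparison with NT or with Doxo+Cyta+DAC, up to 6 per direction with the largest called change and no overlap of libraries, plus genes of 8 functional lists. The genes, lists and tests were chosen with earlier results of these data known. The pairs of back-to-back genes and the fit without Doxo 4 and Doxo+Cyta 20 were chosen after seeing the data. Alternatives were RLE and upper-quartile scaling, no filter, DESeq2 1.42.0, fits of only the groups compared, a fold threshold (natural log beyond 1) and leaving out each library. The labels describe several biological replicates per experiment without tying each library to a culture, so p-values measure the spread between these libraries, which may be partly technical.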

Additional observations from a re-analysis of the deposited data

Results flagged for a closer look

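In the 4 Doxo+Cyta+DAC libraries, 62 measures (the log2 CPM of the 60 genes, the level of the region and their summed CPM) were examined for a library far from the other 3 by Dixon's test, and 3 exceeded its 95% critical value, where chance would give about 1 in 20. TFG stood at 131 CPM in Doxo+Cyta+DAC 31, above the 107 to 109 CPM of the other 3 libraries. IFT57 stood at 21.6 CPM in Doxo+Cyta+DAC 30, below the 24.5 to 25.04 CPM of the other 3. SIDT1 had 0 counts in Doxo+Cyta+DAC 33, which allows up to 0.238 CPM, against 0.206 to 0.262 CPM in the other 3, so this difference lies within the limit that a count of 0 allows.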

How the results depend on the processing

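No paired analysis was possible because the groups share no replicate number. The median log2 fold changes of the 60 genes moved by less than 0.16, the pooled SD of the region level between libraries, with the mean over genes and with DESeq2, RLE, upper-quartile scaling, omission of the count filter and fits of only the groups compared. Leaving out each library in turn, with the lone remaining NT library assumed to vary like the other groups, gave 0 to 17 genes called for Doxo relative to NT, 0 to 6 for Doxo+Cyta (6 without Doxo 4, 4 without Doxo+Cyta+DAC 31), 18 to 33 for Doxo+Cyta+DAC, and 0 to 2 for Doxo relative to Doxo+Cyta. The matching shares of all genes were 0.555% to 22.2%, 0% to 5.04%, 30.6% to 54.9% and 0.921% to 6.21%. Without Doxo+Cyta+DAC 31 the median of Doxo relative to Doxo+Cyta+DAC turned from -0.11 to 0.020, and without Doxo+Cyta+DAC 32 that of Doxo+Cyta turned from 0.080 to -0.020. Without Doxo 4 and Doxo+Cyta 20, an alternative chosen after seeing the data, 23 genes were called for Doxo relative to NT in place of 9. The share of all genes called there went from 10.7% to 37.4%. For Doxo+Cyta it was 8 genes in place of 0, with all genes from 1.46% to 14.5%. Between Doxo and Doxo+Cyta it was 3 genes in place of 1, with all genes from 3.4% to 8.96%. With the fold threshold the counts became 2 for Doxo, 7 for Doxo+Cyta+DAC, 7 and 8 for Doxo and Doxo+Cyta relative to Doxo+Cyta+DAC, and 0 between Doxo and Doxo+Cyta. The shares of all genes at this threshold are given in the Results. For Doxo+Cyta relative to NT, upper-quartile scaling called 1 gene, and no filter and DESeq2 called 6 each. Of all genes these settings called 1.46%, 1.76% and 5.90%. TMEM39A lost its call between Doxo and Doxo+Cyta under upper-quartile scaling and in the 2-group fit. Each called 0 of the 60 genes there, beside 3.21% and 0.50% of all genes. The region level moved by more than its group's SD to 0.24 in NT 1 without the filter, and with the mean to 0.32 in NT 2, -0.082 in Doxo 5 and -0.14 in Doxo 6; NT stayed above Doxo. Of the 44 named changes, 32 kept their call under every alternative run for single genes (the fold threshold was not among them) and 0 reversed. The other 12 lost it under 1 to 6 alternatives, among them all 8 named for Doxo relative to NT, each of which lost it without NT 1 and without NT 2. For Doxo+Cyta+DAC relative to NT these were LOC101929694 (6 alternatives), CFAP44 (5), LINC01215 (2) and CD80 (1). The cause of these shifts was not tested. Genes with few counts, such as CD200R1L and LOC101929694, are limited by depth.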
